A study of Mus musculus with 7 samples.

Results

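The RNA of 10 genes used as markers of granulosa cells was followed across 7 libraries of mouse oocytes. The genes were chosen by name (Inha, Inhba, Amh, Amhr2, Foxl2, Fshr, Nr5a2, Gatm, Kctd14 and Serpine2), and all 10 were found among the 26019 gene rows of the deposited table. Each library was made from 5 oocytes of secondary follicles, in which layers of granulosa cells surround a growing oocyte. Collagenase (1 h) released the follicles from ovaries of C57BL/6J mice, and Accutase (15 min) then parted oocytes from granulosa cells. The libraries were wild type (WT, n = 4) or knockout (KO, n = 3) by their titles. The KO genotype is Mfn2-/- in the series title and design text but Mfn1-/- in the treatment protocol and the genotype label. The age is 8 weeks in the protocol and P1 in the age label, and the design text names 3 mice per group. The sources used here do not give how the gene was removed, or in which cells. No label ties a library to a mouse. The p-values therefore reflect the spread among these samples alone, and that spread may be technical.

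Granulosa cells feed the oocyte through gap junctions and answer follicle-stimulating hormone from the pituitary. They secrete inhibins and activins, which are dimers built from an inhibin alpha subunit and beta subunits or from beta subunits alone, and anti-Müllerian hormone, which restrains the recruitment of small follicles. The number of granulosa cells that stayed with the 5 oocytes of each library was not measured. In bulk samples such as these, fewer cells of a type and less RNA per cell cannot be told apart.

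The values are normalised reads: each whole count was divided by its library's size factor, and these factors lay between 0.914 and 1.10. The libraries held 6676076 to 8343915 reads in genes (KO 2 the most), so a value of 1 is close to 1 read. Mfn2 was at 35.3, 35.1, 15.0 and 29.2 in WT and at 7.27, 4.55 and 7.66 in KO, and it fell (limma log2 fold change -1.94, SE 0.40; adjusted p = 0.00571). Without both KO 2 and KO 3 it was not called. Mfn1 was at 258 to 340 in WT and 309 to 347 in KO and did not pass (limma adjusted p = 0.499). The oocyte markers were abundant in every library: the 17 of 18 listed genes that were found summed to between 224690 and 433190, against 2869 to 5177 for the 10 granulosa markers. Most of the granulosa sum was Serpine2, at 2619 to 4275, so it says little about the other members.

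Promoter sequence is shown for 4 members that represent the patterns described further on. Amhr2 and Gatm were highest in KO 2 and KO 3, Fshr had an order of libraries of its own, and Nr5a2 was nearly level. The lines give the 250 bases before the RefSeq start site on GRCm38.p6, read 5′ to 3′ on the gene's strand, with matches to 4 motifs in capitals on either strand.
Amhr2 (chr15:102445117-102445366, plus strand): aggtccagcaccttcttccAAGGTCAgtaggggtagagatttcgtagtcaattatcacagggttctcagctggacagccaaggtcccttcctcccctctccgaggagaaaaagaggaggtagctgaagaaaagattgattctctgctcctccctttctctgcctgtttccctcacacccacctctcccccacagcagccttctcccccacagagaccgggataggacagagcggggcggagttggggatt
Gatm (chr2:122611278-122611527, minus strand): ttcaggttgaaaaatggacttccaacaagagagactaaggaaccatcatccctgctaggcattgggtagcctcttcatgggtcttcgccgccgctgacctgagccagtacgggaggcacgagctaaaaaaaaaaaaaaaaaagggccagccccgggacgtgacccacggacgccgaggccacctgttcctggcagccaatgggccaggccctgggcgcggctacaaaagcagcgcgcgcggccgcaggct
Fshr (chr17:89200676-89200925, minus strand): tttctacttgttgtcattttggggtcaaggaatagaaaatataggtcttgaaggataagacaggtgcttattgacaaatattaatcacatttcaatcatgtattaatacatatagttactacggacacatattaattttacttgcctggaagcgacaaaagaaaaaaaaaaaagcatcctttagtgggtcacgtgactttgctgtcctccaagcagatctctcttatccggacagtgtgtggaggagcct
Nr5a2 (chr1:136960449-136960698, minus strand): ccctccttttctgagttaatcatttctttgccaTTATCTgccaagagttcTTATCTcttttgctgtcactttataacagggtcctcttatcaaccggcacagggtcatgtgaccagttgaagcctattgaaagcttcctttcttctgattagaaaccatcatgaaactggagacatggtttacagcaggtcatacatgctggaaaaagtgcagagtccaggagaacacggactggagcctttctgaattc
Both strands were searched. The NR5A nuclear receptor motif was AAGGTCA. The element of cyclic AMP response type was TGCGTCA. The forkhead core was GTAAACA. The GATA core was AGATAA. No motif contains another. RefSeq entries matched 8 of the 10 members (not Amh and Kctd14), with 9 windows. AAGGTCA was found in 1 member, Amhr2, at position -231 from the start, and in 4.08% of all 32851 promoter windows of the same length. AGATAA was found in 1 member, Nr5a2, as a pair of matches on the reverse strand, and in 9.99% of all windows. The cyclic AMP and forkhead motifs were found in the windows of 0 members, and in 1.75% and 3.17% of all windows. The windows shown for Amhr2, Fshr and Nr5a2 end at the GENCODE start of the gene and that of Gatm 26 bases inside it. Nr5a2 has a further window, not shown, whose RefSeq start lies 6818 bases inside the gene, and it held 0 matches. For Inha, Foxl2 and Serpine2 the RefSeq start lies 532, 319 and 2515 bases inside the gene, and so does the whole window. The bases before the GENCODE start of these genes were thus not searched, and no absence of a motif there is shown. A match is a description of letters and not of binding.

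Across the members, 6 genes were highest in KO 2 and KO 3, while KO 1 lay within the WT range for each of the 6. These were Inha, Amh, Amhr2, Foxl2, Gatm and Kctd14. Nr5a2 and Serpine2 were abundant and varied little, Fshr was highest in KO 1 and WT 3, and Inhba was low throughout. With limma on log2(value + 1), 0 of the 9 members that passed the filter on low values were called between KO and WT at an adjusted p under 0.05, against 6.71% of the 19227 genes tested. At an unadjusted p under 0.05 there were 4 of 9 by limma, against 21.8% of all genes. By other tools, 0 of 9 members were called with edgeR (6.94% of all genes, 3.58% higher in KO) and 1, Inha, with DESeq2, which gave Inhba and Foxl2 no adjusted p. DESeq2 called 9.74% of the 15126 genes to which it gave one, so 1 of 7 members is near that share. KO and WT libraries overlapped for each of the 9, whereas KO lay wholly above WT for 9.37% of the genes tested and wholly below for 9.83%. The median log2 fold change over the 9 members was 1.48, which is the estimate of Foxl2, a gene of 9 reads, and 8 were above 0. Over all 19227 genes tested the median was -0.01, with 9451 above 0. Amh did not pass the filter (3 or more libraries with a value of 1 or more).

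**Figure D1:**
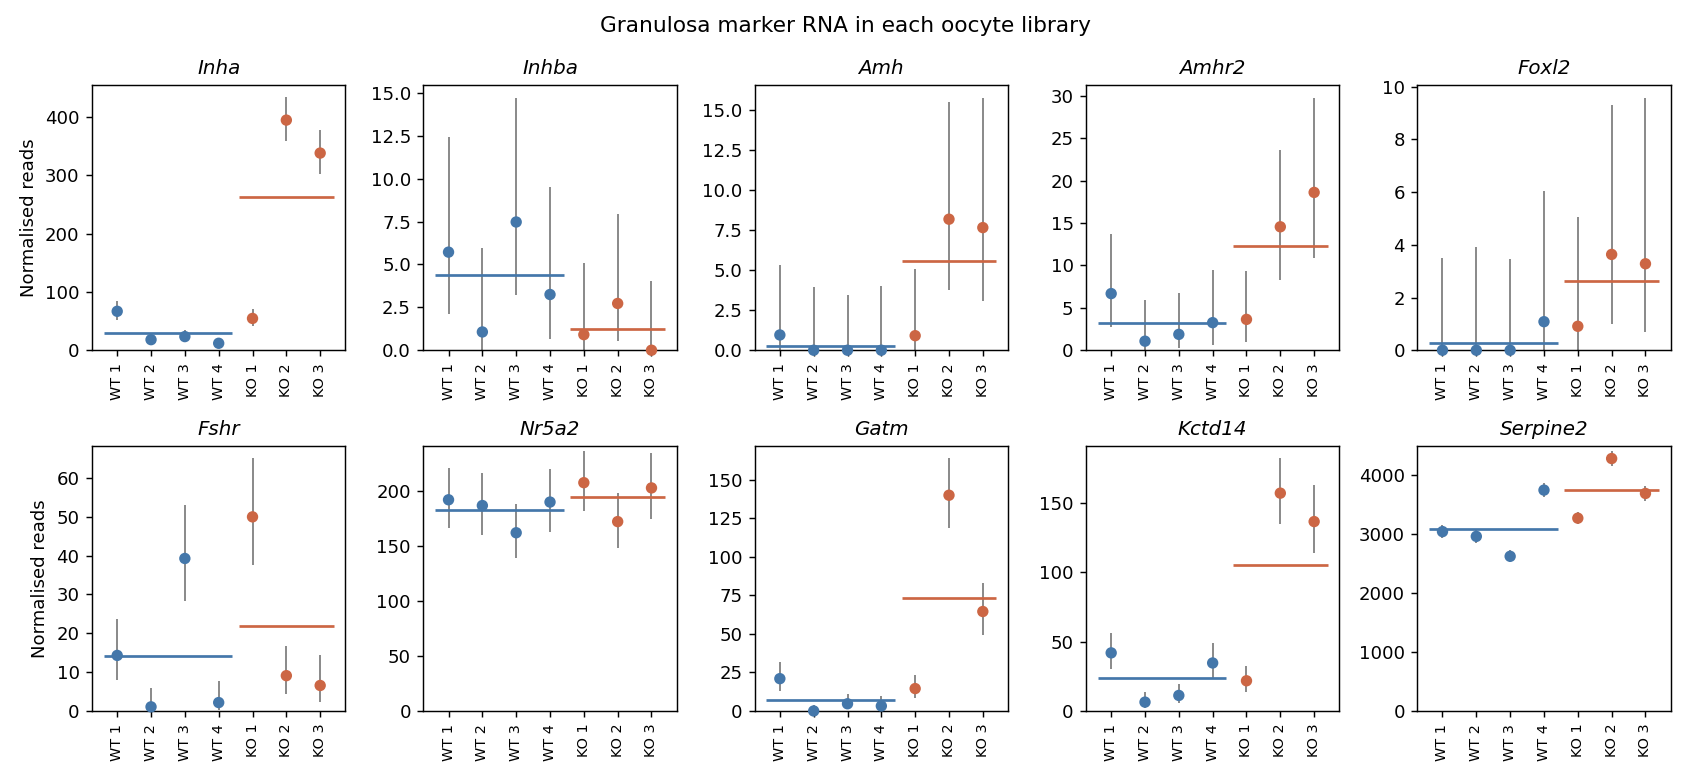
Normalised reads (vertical axis, linear from 0, a separate scale per gene) of the 10 members in each library (horizontal axis; WT blue, KO orange). Grey bars are 95% Poisson counting intervals and horizontal lines are group means. Inha stands at 395 and 338 in KO 2 and KO 3 and at 54.5 in KO 1, Nr5a2 at 162 to 207 in all libraries, and Fshr is highest in KO 1 and WT 3.

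Among the secreted hormones, Inha encodes the inhibin alpha subunit (ENSMUSG00000032968.4; GRCm38 chromosome 1, 75507077 to 75510366, plus strand, 2 exons). Its values were 66.7, 18.1, 23.4 and 11.9 in WT 1 to 4, and 54.5, 395 and 338 in KO 1 to 3. KO 2 and KO 3 were thus far above every other library, and KO 1 lay inside the WT range, between WT 1 and WT 3. WT averaged 30.03 ± 24.9 (SD, n = 4) and KO averaged 262 ± 182 (SD, n = 3), an 8.74-fold ratio. The fitted log2 fold change was 2.95 (SE 0.93, 95% interval 0.62 to 5.28), and it did not pass (limma adjusted p = 0.146). DESeq2 called it on the recovered reads (adjusted p = 0.00843), and limma did without KO 1 (3.86, adjusted p = 0.00718). Without KO 2 and KO 3 the limma log2 fold change was 1.14 (adjusted p = 0.677). That fit takes the spread of the remaining KO library to be that of WT. Counting error was small beside these gaps: KO 2 exceeded KO 1 7.24-fold, with a 95% binomial interval of 5.52 to 9.65 that covers counting error only.

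Inhba encodes the beta A subunit shared by inhibin A and activin A (chromosome 13, 16011851 to 16031621, plus strand). Its values were 5.72, 1.07, 7.48 and 3.25 in WT and 0.908, 2.73 and 0 in KO. It thus did not follow Inha: its highest libraries were WT 3 and WT 1, and KO 3 held 0 of its reads, which allows a value of up to 3.28 (3 reads). Over all libraries 22 reads were counted, 18 of them in WT. The pooled ratio of KO over WT was 0.284, with a 95% binomial interval of 0.0699 to 0.862. This interval covers counting error only and leaves out the spread among libraries. The fitted log2 fold change was -1.30 (SE 0.65; limma adjusted p = 0.247). Per 100 Inha reads, Inhba gave 8.57 reads in WT 1 (95% binomial interval 3.04 to 19.6), 5.88 in WT 2 (0.141 to 37.5), 32.0 in WT 3 (12.5 to 73.2) and 27.3 in WT 4 (4.89 to 103). It gave 1.67 in KO 1 (0.0415 to 9.65), 0.691 in KO 2 (0.142 to 2.03) and 0 in KO 3 (up to 1.20). The intervals of WT 1, WT 2 and WT 4 overlapped that of KO 1, and that of WT 2 overlapped all 3 of KO.

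Amh, the anti-Müllerian hormone gene (chromosome 10, 80805243 to 80807648, plus strand), was at 0.953, 0, 0 and 0 in WT and at 0.908, 8.18 and 7.66 in KO. In reads this was 1, 0, 0 and 0 in WT and 1, 9 and 7 in KO, so KO 2 and KO 3 carried all but 2 of its 18 reads. Each of the 3 WT libraries at 0 allows up to 3 reads. Pooled over libraries, KO held 17 reads and WT 1, a 21.7-fold ratio with a 95% binomial counting interval of 3.404 to 908. That interval leaves out the spread among libraries. With no filter on low values, limma called 6.23% of the 26019 genes in either direction, 772 of them higher in KO. Amh was among those called higher (log2 fold change 2.17, SE 0.68, limma adjusted p = 0.0313). That call compares KO 2 and KO 3 with libraries at or near 0, and its size depends on the pseudocount of 1.

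The receptor of that hormone, Amhr2 (ENSMUSG00000023047.11; chromosome 15, 102445367 to 102454633, plus strand), is a type II receptor kinase. Its values were 6.67, 1.07, 1.87 and 3.25 in WT and 3.63, 14.5 and 18.6 in KO. KO 3 and KO 2 were the highest libraries, WT 1 came next, and KO 1 lay within the WT range. The means were 3.21 ± 2.48 (SD, n = 4) and 12.3 ± 7.74 (SD, n = 3), and the log2 fold change of 1.59 (SE 0.60, 95% interval 0.34 to 2.84) did not pass (limma adjusted p = 0.117). Without KO 1 it did (2.23; limma adjusted p = 0.0275), and without KO 2 and KO 3 it was 0.31 (adjusted p = 0.928). Per 100 Inha reads, Amhr2 gave 10 reads in WT 1, 6.67 in KO 1, 3.69 in KO 2 and 5.50 in KO 3, and the 4 counting intervals overlapped. Ligand and receptor of the anti-Müllerian pathway thus had their highest values in the same libraries (Pearson r = 0.944 over 7 libraries, log2 scale).

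Fshr, the receptor of follicle-stimulating hormone (ENSMUSG00000032937.5; chromosome 17, 88984952 to 89200675, minus strand), had a different order of libraries. Its values were 14.3, 1.07, 39.3 and 2.17 in WT and 49.97, 9.09 and 6.56 in KO. KO 1 was the highest and WT 3 the second, and both libraries with the most Inha lay below WT 1. KO 2 held 0.182 times the Fshr of KO 1 (95% binomial counting interval 0.0827 to 0.360), while it held 7.24 times the Inha. Per 100 Inha reads, Fshr gave 168 reads in WT 3 (100 to 288) and 91.7 in KO 1 (62.4 to 134). It gave 2.30 in KO 2 (1.10 to 4.28) and 1.94 in KO 3 (0.707 to 4.28). The means were 14.2 ± 17.7 in WT and 21.9 ± 24.4 in KO, and the log2 fold change was 0.98 with a 95% interval of -1.98 to 3.94 (limma adjusted p = 0.714). The range within WT (1.07 to 39.3) and within KO (6.56 to 49.97) was thus wider than the gap between the means. The fitted change was 0.13 without KO 1 (limma adjusted p = 0.961), 1.76 without WT 3 (0.324) and 2.68 without both KO 2 and KO 3 (0.750).

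Of the transcription factors, Foxl2 keeps granulosa cell identity and Nr5a2 is an orphan nuclear receptor that granulosa cells need for ovulation. Foxl2 (chromosome 9, 98955288 to 98958543, plus strand, 1 exon) was near the floor of detection, with 0, 0, 0 and 1.08 in WT and 0.908, 3.64 and 3.28 in KO. Its 9 reads fell as 1 in WT and 8 in KO, and KO 2 and KO 3 held 4 and 3 of the 8. The pooled ratio was 10.2-fold, with a 95% binomial interval of 1.37 to 454. That interval covers counting error only and leaves out the spread among libraries. It passed the filter on low values only through KO 2, KO 3 and the 1 read of WT 4. The fitted log2 fold change of 1.48 (SE 0.64) did not pass (limma adjusted p = 0.172). An antisense gene, Foxl2os, overlaps the Foxl2 exon by 12 bases, and these libraries carry no strand.

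Nr5a2 (ENSMUSG00000026398.14; chromosome 1, 136842571 to 136960448, minus strand) was level by comparison. Its values were 192, 186, 162 and 189.5 in WT and 207, 172 and 202 in KO. The highest library exceeded the lowest only 1.28-fold, and KO 2, with the most Inha, was the second lowest. The means were 182 ± 13.9 (SD, n = 4) and 194 ± 19.2 (SD, n = 3). The 95% interval of the log2 fold change, -0.27 to 0.44, was the narrowest after that of Serpine2 among the 9 members tested (estimate 0.09; limma adjusted p = 0.821). Nr5a2 reads per 100 Inha reads accordingly ran from 43.5 in KO 2 (36.5 to 51.8) to 1591 in WT 4 (868 to 3246).

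The remaining members are Gatm, Kctd14 and Serpine2. Gatm encodes glycine amidinotransferase, the first enzyme of creatine synthesis (ENSMUSG00000027199.14; chromosome 2, 122594467 to 122611303, minus strand). Its values were 20.97, 0, 4.67 and 3.25 in WT and 14.5, 140.0 and 64.5 in KO. KO 2 and KO 3 were again highest and WT 1 came next. KO 2 exceeded KO 3 2.17-fold (95% binomial counting interval 1.60 to 2.98), a wider gap than for Inha (1.17-fold, 1.01 to 1.36). The means were 7.22 ± 9.37 (SD, n = 4) and 73.0 ± 63.2 (SD, n = 3), and the log2 fold change of 3.45 (SE 1.21, 95% interval 0.50 to 6.39) did not pass (limma adjusted p = 0.168). It passed without WT 1 (4.18; limma adjusted p = 0.0425). Without KO 2 and KO 3 it was 1.70 (adjusted p = 0.744).

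Kctd14, a gene of the KCTD family of BTB-domain proteins (ENSMUSG00000051727.14; chromosome 7, 97451323 to 97459557, plus strand), had 41.9, 6.39, 11.2 and 34.7 in WT and 21.8, 157 and 137 in KO. It followed Inha closely in KO: per 100 Inha reads it gave 40.0 in KO 1 (95% binomial interval 23.8 to 65.2), 39.9 in KO 2 (33.2 to 47.6) and 40.5 in KO 3 (32.6 to 49.9). WT 1, WT 2 and WT 3 had 62.9, 35.3 and 48.0, with intervals that overlapped these. WT 4 stood apart with 291 (143 to 640), from 32 Kctd14 and 11 Inha reads. The means were 23.6 ± 17.4 and 105 ± 73.0, with a log2 fold change of 2.04 (SE 0.98, 95% interval -0.39 to 4.47; limma adjusted p = 0.306). It passed without KO 1 (2.94; limma adjusted p = 0.0464) and did not without KO 2 and KO 3, at 0.24 by limma (adjusted p = 0.952) and -0.10 by edgeR (adjusted p = 0.981).

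Serpine2 encodes a secreted inhibitor of serine proteases such as thrombin and plasminogen activators (ENSMUSG00000026249.10; chromosome 1, 79794197 to 79861180, minus strand). It was the most abundant member in every library, at 3037, 2957, 2619 and 3740 in WT and 3265, 4275 and 3683 in KO. KO 2 was highest, but WT 4, the library with the least Inha, was second, so the groups overlapped. The means were 3088 ± 471 (SD, n = 4) and 3741 ± 507 (SD, n = 3), and the log2 fold change was 0.28 (SE 0.13, 95% interval from just under 0 to 0.56; limma adjusted p = 0.230). Its highest library exceeded its lowest 1.63-fold, against 33.1-fold for Inha and 46.9-fold for Fshr.

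**Figure D2:**
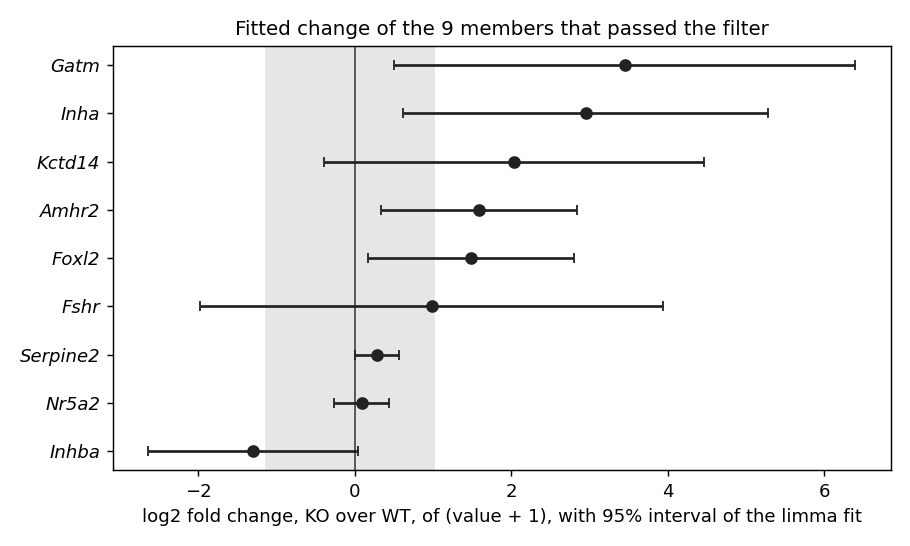
Fitted log2 fold change, KO over WT, of value + 1 (horizontal axis) for the 9 members that passed the filter (vertical axis). Points are limma estimates, bars their 95% intervals, and the grey band spans the 5th to 95th percentile of all 19227 genes tested (-1.13 to 1.01). Gatm and Inha have the largest estimates and wide intervals, while Nr5a2 and Serpine2 lie near 0 with narrow ones.

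Compared per kilobase of merged exon, which allows levels of different genes to be set side by side, Serpine2 was first in WT at 373 ± 56.8 (SD, n = 4) normalised reads per kb. Nr5a2 was second at 30.9 ± 2.36. Inha, at 20.4 ± 16.9, and Kctd14, at 9.17 ± 6.78, followed. Fshr (6.02 ± 7.52), Gatm (2.41 ± 3.12) and Amhr2 (1.60 ± 1.24) came next, and Inhba, Amh and Foxl2 were each under 1. From Nr5a2 down to Amhr2, each neighbour in this order differed from the next by less than the larger of their 2 SDs. In KO, Serpine2 remained first at 451 ± 61.2 per kb (SD, n = 3), and Inha, at 178 ± 124, and Kctd14, at 41.0 ± 28.4, had means above that of Nr5a2, at 32.8 ± 3.25. The step from Kctd14 to Nr5a2 was within the Kctd14 SD, and the step from Inha to Kctd14 was a little larger than the Inha SD.

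Among themselves the members correlated to different degrees. On the log2 scale over 7 libraries, pairwise Pearson r between Inha, Amh, Amhr2, Gatm and Kctd14 lay between 0.853 (Inha and Kctd14) and 0.984 (Inha and Amh). Foxl2 correlated with these 5 at 0.763 to 0.867 and with Serpine2 at 0.902. Foxl2 rests on 9 reads in all and Amh on 18, so the r values of both turn on few reads. Serpine2 correlated with the 5 at 0.597 (Inha) to 0.823 (Kctd14). Each member was also set against the mean of the other 9. Gatm had the highest r with it, 0.997 (Spearman rho 1), and Nr5a2 (0.0545), Fshr (0.163) and Inhba (-0.29) the lowest. Serpine2 was between, at 0.629. These values describe 7 libraries that share their depth and composition across genes, and carry no p. Genotype and library cannot be told apart in them, since 2 of the 3 KO libraries carry most of the range.

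**Figure D3:**
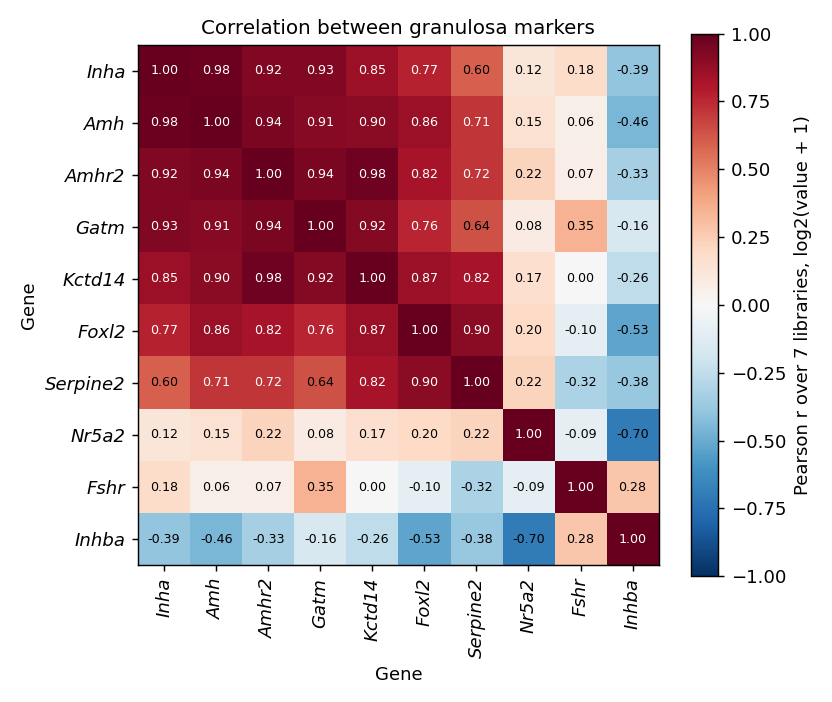
Pearson r (colour and printed value) between each pair of members on both axes, over 7 libraries on the log2(value + 1) scale. Inha, Amh, Amhr2, Gatm and Kctd14 form a block of r from 0.853 to 0.984, and Foxl2 and Serpine2 reach 0.902 with each other. Nr5a2, Fshr and Inhba have no r above 0.349 with any member. Foxl2 rests on 9 reads and Amh on 18, so their r values turn on few reads.

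The mean log2(value + 1) of the 10 members was 5.72 in KO 2, 5.35 in KO 3, 4.57 in WT 1, 4.43 in KO 1, 3.94 in WT 3, 3.73 in WT 4 and 2.94 in WT 2. Among the 11689 other genes with a mean value of at least 20, 126 (1.08%) had a Pearson r above 0.9 with this mean over the 7 libraries, and the median r was -0.00343. The 8 most alike, leaving out predicted and Rik-type names, were Nme2 (r = 0.991), Qser1, Gstm1, Apoa1, Kdm3b, Wfdc10, Spin2c and Ephx2 (r = 0.963). Gstm1, a glutathione transferase gene, had 104, 25.6, 60.8 and 47.7 in WT and 95.4, 582 and 657 in KO. Ephx2, the soluble epoxide hydrolase gene, had 29.6, 5.33, 15.9 and 10.8 in WT and 13.6, 135 and 106 in KO. In both, as in Inha, KO 2 and KO 3 were far above the rest and KO 1 lay inside the WT range. The 8 were chosen for a profile that is high in KO 2 and KO 3, so a call between KO and WT among them is not independent of that choice. By edgeR 4 of the 8 were called (6.94% of all genes) and by DESeq2 6 (9.74% of the genes given an adjusted p). Of the 8, limma called Apoa1 (log2 fold change 2.01, adjusted p = 0.0273) and Spin2c (2.60, adjusted p = 0.0163), and both calls ended when WT 2, WT 3, KO 2 or KO 3 was left out (limma adjusted p up to 0.110 for Apoa1 and 0.0740 for Spin2c). Whether close relatives of these 8 genes share their reads was not checked. For the members, 0% of the 75-base stretches of their transcripts occur in another gene.

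The genes through which inhibin, activin and anti-Müllerian hormone act were mostly not called. Of 22 listed genes of this signalling, 20 were found and 19 tested. In all 1 rose and 0 fell, against 3.09% of all genes tested that rose and 3.63% that fell, and their median log2 fold change was -0.07. The gene that rose was Smad5, a transducer of BMP and anti-Müllerian signals, with 44.8, 67.1, 57.9 and 56.3 in WT and 105, 95.5 and 104 in KO. Its fitted change was 0.85 on the log2 scale (SE 0.22; limma adjusted p = 0.0262). KO 1 was as high as KO 2 and KO 3 here. The call ended in 5 of the 7 fits that left out a library (WT 1, WT 3, KO 1, KO 2 or KO 3; limma adjusted p up to 0.0809) and with the replicate number as a block (0.0559). By edgeR 2 of the 19 were called, both higher in KO, against 3.58% of all genes called higher. Acvr2a, a receptor of activin, was at 29.8 to 61.7 in WT and 47.3 to 87.5 in KO. Bmpr1b, a receptor kinase of the same family, was at 699.7 to 795 and 721 to 853. Inhbb, the beta B subunit gene, had values of 0 in the 4 WT libraries and 1.82, 1.82 and 3.28 in KO. It passed the filter only through its KO values, so no test is given for it.

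A second list of 30 granulosa cell genes gave 28 rows and 22 tested genes, of which 3 rose (3.09% of all genes), 2 fell (3.63% of all genes) and 17 did not pass. At an unadjusted p under 0.05 there were 11 of 22 by limma, against 21.8% of all genes. Inhbb, which passed the filter only through its KO values, was among the 11. By edgeR 6 were called, 4 higher and 2 lower in KO, against 6.94% of all genes. The median log2 fold change of the 22 was 0.98. In 18 of the 28, as in 6 of the 10 members, KO 2 and KO 3 were both above all other libraries, against 9.88% of all gene rows. This count was chosen after the values were seen and carries no test. Of the 28, 12 stayed under 10 in every library, where the size factor alone can rank libraries of equal reads. Inhbb was such a case, at 1.817 in KO 1 and 1.818 in KO 2. Other low genes of the list were more plainly highest in KO 2 and KO 3. Wt1, a transcription factor gene of granulosa and other somatic cells, had 1.91, 0, 0 and 1.08 in WT and 1.82, 7.27 and 6.56 in KO. Hsd17b1, an estradiol-forming enzyme gene, had 8.58, 2.13, 0 and 1.08 in WT and 4.54, 22.7 and 15.3 in KO. Neither passed (limma adjusted p = 0.0880 and 0.0679).

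Of the 5 genes of that list that were called, 2 had this pattern, Ube2c and Nr0b1. Cyp19a1, the aromatase gene, fell, with 151, 218, 171 and 178 in WT and 98.1, 50.0015 and 86.4 in KO, and so did Esr2, an estrogen receptor gene, with 874 to 1119 in WT and 596 to 853 in KO. Limma adjusted p was 0.00251 for Cyp19a1 and 0.0446 for Esr2. Cyp19a1, the estrogen-forming enzyme of granulosa cells, was thus lowest in KO 2, the library with the most Inha. Krt8, a keratin gene, rose, with 5.61 to 26.7 in WT and 65.4, 46.4 and 40.5 in KO, KO 1 being the highest (limma adjusted p = 0.0251). Ube2c, a ubiquitin-conjugating enzyme gene of the cell cycle, rose, with 2472 to 3456 in WT and 3862, 6027 and 4134 in KO (limma adjusted p = 0.0111). Nr0b1, a nuclear receptor gene named after its values were seen, rose from 0 to 1.07 in WT to 0.908, 14.5 and 6.56 in KO (limma adjusted p = 0.0460). It passed the filter only through KO 2, KO 3 and 1 read in WT 2. Its limma call ended with a pseudocount of 0.5 (adjusted p = 0.0575), CPM scaling (0.0608) and the replicate block (0.0564). When 1 library was left out, the Cyp19a1 call held in 7 of 7 fits. That of Ube2c ended without KO 2 (limma adjusted p = 0.0703). That of Krt8 ended when WT 2, WT 3, KO 1 or KO 2 was omitted, where limma adjusted p reached 0.0706. Those of Esr2 and Nr0b1 held in 1 fit each, without KO 3 and without KO 1, and reached 0.207 and 0.262 in the others. Without KO 2 and KO 3 none of the 5 passed.

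Markers of other ovarian cells were examined beside the members. The theca list summed to 42.1 to 64.8 in WT and to 61.8, 234 and 365 in KO 1 to 3, and most of the sum in KO 2 and KO 3 lay in Hsd3b1, a steroid dehydrogenase gene, at 23.6, 195 and 327 in KO and 6.54 to 44.8 in WT. Cyp17a1, which defines androgen-forming theca cells, reached no more than 2.73 in any library. By limma 0 of the 7 theca genes tested were called, and 2 had an unadjusted p under 0.05 (21.8% of all genes). These 2 went opposite ways, Hsd3b1 higher and Cyp11a1 lower in KO. Cyp11a1 was at 5.61 to 8.67 in WT and at 1.82, 1.82 and 5.47 in KO. By edgeR 0 were called (6.94% of all genes). By DESeq2 1 was called, higher in KO, against 9.74% in either direction of the genes given an adjusted p. Stroma markers summed to 9.35 to 20.2 in WT and 15.3 to 20.001 in KO, and surface epithelium markers to 17.2 to 35.5 and 15.3 to 28.2. Most of the surface epithelium sum in each library was Upk3b, at 12.0 to 29.9. Endothelial markers summed to 234 to 285 and 194 to 254, and most of each sum was Pecam1 (128 to 191 over all libraries). Of the 7 endothelial genes tested, 0 were called by limma. An unadjusted p under 0.05 was reached by 2 of them, both lower in KO (21.8% of all genes). The erythroid list had 1 gene in the table, with 2.13 in WT 2 and 0 elsewhere. Immune markers summed to 558 to 596 in WT and 196 to 286 in KO, and most of the sum was C1qb (513 to 555 in WT and 173 to 248 in KO; limma adjusted p = 0.000124). Of the 10 immune markers found, 6 were at 0 in the 3 KO libraries, and these 6 were at 0 in 3 of the 4 WT libraries too, with no WT value above 3.74. The part of any of these in the levels of the members was not tested.

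**Figure D4:**
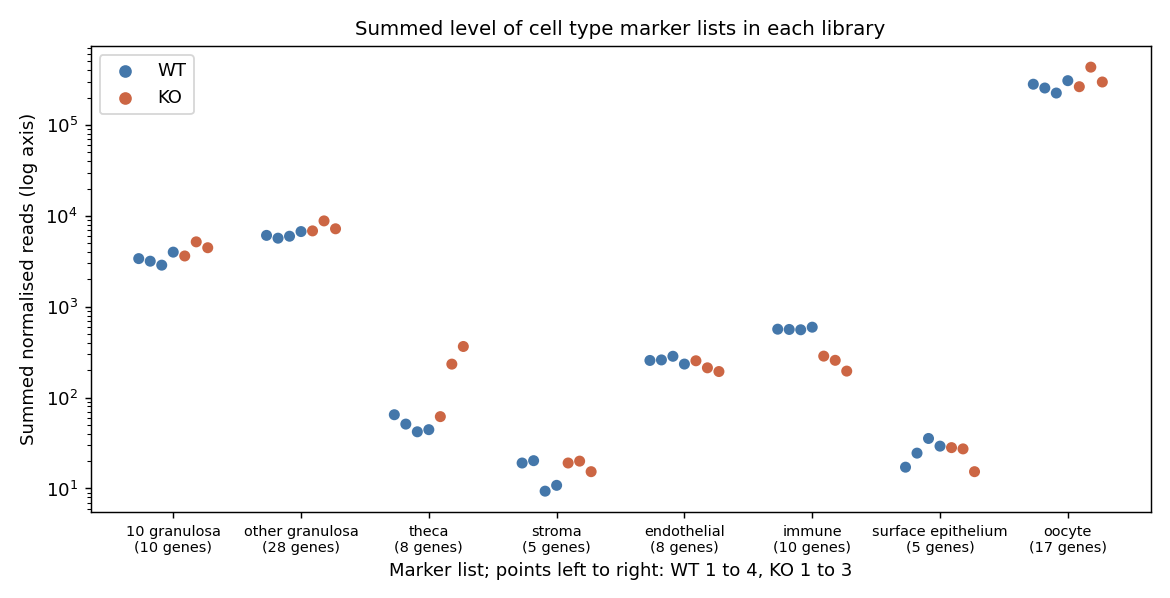
Summed normalised reads (vertical log axis) of 8 marker lists in each library (points, WT blue, KO orange, in the order given under the axis). The oocyte list is at 224690 to 433190 in all libraries. The 10 granulosa markers are at 2869 to 5177, most of it Serpine2. The theca list is at 234 and 365 in KO 2 and KO 3 against at most 64.8 elsewhere.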

How the data were processed

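RNA was read as full-length cDNA (Smart-Seq2, then a Nextera XT library that does not mark strand, 75-base paired reads), per the labels' protocols. The deposited values are a normalised signal, counts that the authors scaled by a library size factor. Division by the value of 1 read gave whole numbers, to a tolerance of 0.05, for 99.97% or more of the values in every library. The submitters' processing notes name STAR, cutadapt, FastQC, DESeq2 and DESeq, and the build GRCm38 (mm10). The sources used here name no counter.

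Members were rows whose gene name equals a listed symbol. Members and lists were chosen with earlier results of these data known. The test was limma (3.58.1, R 4.3.3; trend and robust) on log2(value + 1) over the 19227 genes at 1 or above in 3 or more libraries. Benjamini-Hochberg adjustment ran over all of them, and the fit was checked on simulated data. The pseudocount shrinks the fold change of low genes. edgeR (4.0.16, quasi-likelihood) and DESeq2 (1.42.0) were run on the recovered reads as alternatives. Intervals on reads are exact Poisson or Clopper-Pearson binomial and cover counting error only, since these libraries carry no molecular identifiers. Gene positions and exon lengths are from GENCODE M21 (GRCm38). No pair of libraries agreed within sampling noise. Genes outside the members were named by rule: those called in each list, at most 4 by smallest p, and the 8 whose pattern was most like the member mean. Outside this rule, Acvr2a, Bmpr1b, Inhbb, Wt1, Hsd17b1, Nr0b1, Hsd3b1, Cyp11a1, Cyp17a1, Pecam1, Upk3b and Gnas were named after their values were seen.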

Additional observations from a re-analysis of the deposited data

Results flagged for a closer look

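Among the 4 WT libraries, 3 of the genes named had a single library apart from the rest by Dixon's criterion. Its chance rate of about 1 group in 20 is for continuous values and does not hold for counts this low. Amh was at 0.953 in WT 1, Foxl2 at 1.08 in WT 4 and Nr0b1 at 1.065 in WT 2, each against 0 in the other 3. Each of these values is 1 read, so the gap is the smallest that counting allows. Any gene with 1 read in 1 of the 4 libraries and 0 in the others meets the criterion, so these flags show nothing more. Groups of 3, such as KO, were not examined in this way, so the distance of KO 1 from KO 2 and KO 3 in Inha, Gatm and Kctd14 is given as values only.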

How the results depend on the processing

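The direction of the tested members was kept in every limma fit that held them, and in edgeR and DESeq2 with all libraries. The filter at a value of 10 left 6 of the 9, without Inhba, Amhr2 and Foxl2. Without KO 2 and KO 3, an edgeR fit added after seeing the data gave a log2 fold change of -0.10 for Kctd14 and -0.18 for Ephx2. In place of 0 members called, 1 was called higher with no filter on low values (Amh) and 1 with DESeq2 (Inha), and leaving out 1 library gave 0 to 3. Genes called numbered 1291 in the main fit (594 higher and 697 lower) and 604 to 1772 when 1 library was left out (228 to 822 higher and 332 to 950 lower). Without KO 2 and KO 3 they numbered 130 by limma (8 and 122) and 105 by edgeR (27 and 78), with a lone KO library and hence fewer samples. The cause of the other shifts was not tested. With the replicate number as a block, on WT 1 to 3 and KO 1 to 3, 1020 genes and 0 members were called. The labels do not say whether a shared number pairs libraries. Same-numbered deviations correlated at -0.14, 0.04 and 0.03, and differently numbered ones at -0.11 to 0.09. With so few libraries these values cannot decide it. In all, 3 members (Amh, Foxl2 and Inhba) rest on 9 to 22 reads, so for them depth limits what could be detected.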

Other observations

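A list of genes that carry the response to gonadotropins through cyclic AMP holds 18 names, Fshr among them. Of these, 15 were found and 14 tested. By limma 0 were called (6.71% of all genes), with 5 of 14 at an unadjusted p under 0.05 (21.8% of all genes), and edgeR and DESeq2 called 0. Their median log2 fold change was -0.02. Gnas, the gene of the stimulatory G protein subunit, named after its values were seen, was at 1366 to 2079 in WT and at 1801, 3758 and 1820 in KO, so KO 2 alone stood above the others. Among the 17 oocyte markers tested, 0 were called by limma, and 6 had an unadjusted p under 0.05 (21.8% of all genes). The number called varied with the settings. By edgeR and with the replicate block 1 was called higher in KO. With CPM scaling and with the filter at a value of 10 there were 2, and by DESeq2 and by limma with no filter 3. Of all genes, edgeR called 3.58% higher. In either direction DESeq2 called 9.74% of the genes given an adjusted p, and limma with no filter 6.23%. The median log2 fold change of the 17 was 0.14.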
